A study of Homo sapiens with 4 samples.

Results

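The 10 genes described here encode the 4E-BP repressors (EIF4EBP1, EIF4EBP2 and EIF4EBP3), 2 cap-binding proteins (EIF4E and EIF4E2), the eIF4G scaffolds (EIF4G1, EIF4G2 and EIF4G3) and the eIF4A helicases (EIF4A1 and EIF4A2). They were taken by symbol, each from 1 row of a table of 60617 Ensembl genes, and EIF4EBP2 was chosen by its fall in both lines. Its change is therefore given as a description, with no test. RNA came from 2 human prostate cancer lines. 22Rv1 was derived from a human prostate carcinoma grown as a xenograft, and PC3 from prostate cancer that had spread to bone. The 4 groups were 22Rv1 untreated, 22Rv1 with 75 µM morusin, PC3 untreated and PC3 with 46 µM morusin, a prenylated flavone of mulberry, with a treatment time of 6 h. 22Rv1 grew in RPMI and PC3 in F12, both with heat-inactivated bovine serum and antibiotics, so line, medium and dose cannot be told apart. Each group was 1 library, so a change within a line has no replicate check.

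Most cytoplasmic mRNAs are recruited to the ribosome through their 5′ cap. eIF4E binds the cap, eIF4G bridges eIF4E to the ribosome-bound factors, and eIF4A unwinds the 5′ leader; the 3 together form eIF4F. The 4E-BPs occupy the surface of eIF4E that eIF4G uses. The kinase complex mTORC1 phosphorylates them, which releases eIF4E, and this axis is often active in prostate cancer. All of this is regulated largely at the protein level, whereas the data here are mRNA levels.

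The labels were checked against line markers. KLK4, a kallikrein protease of the prostate picked from the marker list after its values were seen, was at 288 and 429 FPKM (mapped fragments scaled to transcript length and to the library's total) in untreated and treated 22Rv1, and at 0.0174 and 0 FPKM in PC3. Of 8 markers fixed for 22Rv1, 7 were called higher in that line and HOXB13 in PC3, while all 6 PC3 markers were called higher in PC3. The 15 leukocyte, fibroblast and endothelial markers summed to 1.91 and 2.2 FPKM in untreated and treated 22Rv1 and to 31.7 and 43.5 FPKM in PC3, of which CD68 made up 26.0 and 39.9 FPKM, while VWF and CDH5 were listed at 0 in all 4 libraries. In bulk RNA, fewer cells of a kind and less RNA per cell cannot be told apart. The FPKM of a library summed to between 335458 and 408628, and its depth, inferred roughly from the steps between low values, was 19.1 to 40.6 M (mega) read pairs. The share of FPKM from mitochondrial genes was 7.34% and 3.77% in untreated and treated 22Rv1 and 5.53% and 3.41% in PC3.

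Promoters of a pair of members are shown because these members lay on opposite sides of 0 in both lines: EIF4EBP2, which was lower with morusin, and EIF4A2, which was higher. Each run holds the 250 bases before and the 50 after the start of the gene in RefSeq, on GRCh38.p14, 5′ to 3′ on the strand of the gene. The EIF4EBP2 window is chr10:70403895-70404194 (plus strand) and the EIF4A2 window chr3:186783327-186783626 (plus strand). Capitals mark matches, on either strand, to any of 5 motifs, which do not overlap in these windows. They are GGGCGG for a GC box, the letters CCAAT for the box of that name, TGATGNAA for the core of an ATF4 response element, GAANNTTC for the core of a heat shock element and TGANTCA for an AP-1 site.
EIF4EBP2: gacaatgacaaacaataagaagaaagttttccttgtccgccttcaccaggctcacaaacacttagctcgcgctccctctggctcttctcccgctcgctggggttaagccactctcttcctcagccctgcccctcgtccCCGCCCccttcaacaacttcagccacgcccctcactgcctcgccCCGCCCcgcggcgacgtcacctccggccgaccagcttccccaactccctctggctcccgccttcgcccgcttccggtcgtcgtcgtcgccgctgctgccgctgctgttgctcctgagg
EIF4A2: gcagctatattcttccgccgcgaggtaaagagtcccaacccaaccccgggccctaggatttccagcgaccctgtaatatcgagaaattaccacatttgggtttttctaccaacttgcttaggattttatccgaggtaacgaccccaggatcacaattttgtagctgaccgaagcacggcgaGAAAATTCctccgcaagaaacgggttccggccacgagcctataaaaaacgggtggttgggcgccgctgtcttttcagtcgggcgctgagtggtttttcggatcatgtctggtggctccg
The EIF4EBP2 window held 2 GC boxes, and no letters of the other motifs, in 64.3% G and C. The EIF4A2 window held 1 heat shock element core and no other match, in 52.3% G and C. Across 35116 RefSeq promoter windows of the same length the median was 58.7% G and C. A GC box was found in 45% of these windows, a CCAAT box in 34.6%, an ATF4 core in 3.62%, a heat shock core in 6.77% and an AP-1 site in 7.71%. Of the 10 members, 9 had an entry, all but EIF4EBP1, and of these 7 held a GC box in at least 1 window, 4 a CCAAT box, 0 an ATF4 core, 1 (EIF4A2) a heat shock core and 1 (EIF4G1) an AP-1 site. Some members had more than 1 window, so these counts per member are not on the same scale as the shares per window. These matches are descriptions of the letters and not binding sites. The RefSeq start of EIF4EBP2 lies 234 bases upstream of its start in GENCODE 29.

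Members spanned a wide range of levels in each library. Untreated 22Rv1 ran from EIF4A1 at 351 FPKM, EIF4G2 at 280 FPKM and EIF4G1 at 224 FPKM, through EIF4A2 at 83.2 FPKM and EIF4EBP1 at 67.6 FPKM, to EIF4EBP2, EIF4E2, EIF4G3 and EIF4E at 29.6, 28.3, 27.6 and 21.1 FPKM, with EIF4EBP3 last at 2.64 FPKM. Untreated PC3 had EIF4G2 first, at 474 FPKM, and EIF4A1 next, at 404 FPKM. The order below was EIF4G1 at 169 FPKM, EIF4A2 at 94.7 FPKM, EIF4EBP1 at 42.7 FPKM, EIF4E2 at 29.2 FPKM, EIF4EBP2 at 25.3 FPKM, EIF4E at 22.2 FPKM, EIF4G3 at 20.1 FPKM and EIF4EBP3 at 0.0378 FPKM. With 1 library per group, neighbours in this order cannot be set against a replicate spread. The cap-binding subunit, EIF4E, was among the lowest of the eIF4F mRNAs per length. EIF4A1 was at 16.6 times and 18.2 times its level in untreated 22Rv1 and PC3, and EIF4G1 at 10.6 times and 7.61 times. Such ratios between genes depend on the transcript lengths used, and EIF4E has a coding transcript of 898 bases and a longest one of 11523.

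**Figure D1:**
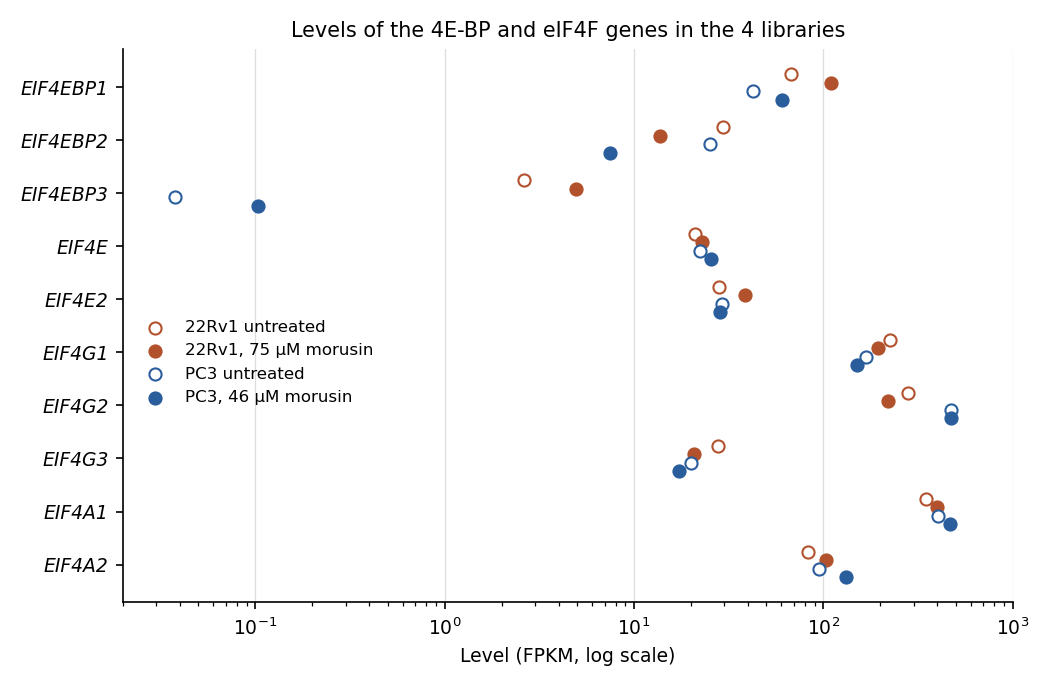
FPKM (log axis) of each of the 10 genes in the 4 libraries; open circles are untreated, filled circles treated, and each point is 1 library. EIF4EBP2 is lower in both treated libraries, at 13.8 and 7.47 FPKM against 29.6 and 25.3 FPKM untreated, while EIF4E stays between 21.1 and 25.6 FPKM.

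Among the 4E-BPs, which compete with eIF4G for eIF4E, the mRNA of EIF4EBP2 was lower and that of EIF4EBP1 higher with morusin in both lines. EIF4EBP2 encodes the 4E-BP best known from neurons. It lies on chromosome 10 at 70404379 to 70428618 (plus strand, GRCh38), with 3 exons. Its level was 29.6 FPKM in untreated and 13.8 FPKM in treated 22Rv1, and 25.3 FPKM in untreated and 7.47 FPKM in treated PC3. Both treated libraries lay below both untreated ones, an order favoured by choosing the gene for its fall. The log2 change of FPKM + 1, the scale used for all changes here, was -1.05 in 22Rv1 (counting error 0.037) and -1.63 in PC3 (counting error 0.036), with the counting error taken from the estimated depth and covering counting only. Adding 1 understates the change of low genes. Of the genes with 1 FPKM or more in a library of the line, 103 of 13361 had a lower change than EIF4EBP2 in 22Rv1 and 36 of 12907 in PC3. These values are those the gene was chosen by and carry no test. At least 2-fold lower was met by 1 of 10 members in 22Rv1, where 1.02% of all genes met it, and by 1 of the 9 members past the expression filter in PC3, where 2.64% did; in both lines this was EIF4EBP2. The 22Rv1 value was near the threshold, and with a pseudocount of 5 it was -0.88.

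EIF4EBP1, the 4E-BP most studied as an mTORC1 substrate and a known target of the stress factor ATF4, was higher in the treated libraries. Its gene lies on chromosome 8 at 38030341 to 38060365 (plus strand), with 3 exons. Its level was 67.6 FPKM untreated and 110 FPKM treated in 22Rv1, and 42.7 and 60.6 FPKM in PC3. The log2 changes were 0.69 in 22Rv1 and 0.49 in PC3, and in each line the treated library was the higher. In the fit over both lines (limma, line and treatment as terms), the shared log2 change was 0.59 ± 0.18 (SE), with a Benjamini-Hochberg adjusted p of 0.16 over 13980 genes. It did not pass at 0.05, and its adjusted p ranged from 0.078 to 1 over 8 alternative settings.

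EIF4EBP3, the smallest of the 3 repressors, was low in 22Rv1 and near 0 in PC3. It lies on chromosome 5 at 140547666 to 140549578 (plus strand). Its level was 2.64 and 4.92 FPKM in untreated and treated 22Rv1, and 0.0378 and 0.103 FPKM in untreated and treated PC3. The 22Rv1 values rest on about 43 and 65 read pairs, and the log2 change of 0.70 has a counting error of 0.219, the largest of the members in that line. With a trend on transcript length removed, it was 0.28. The PC3 values rest on about 1.1 and 2.0 read pairs, so no fold or direction is given there. The gene shares its place and strand with the readthrough gene ANKHD1-EIF4EBP3, which was at 17.4 and 13.3 FPKM in 22Rv1 and 10.7 and 7.73 FPKM in PC3. The readthrough row was thus above EIF4EBP3 in every library, and lower with morusin in both lines, whereas EIF4EBP3 alone was higher in 22Rv1. Summed over both rows, the level was 20.0 and 18.2 FPKM in 22Rv1. Whether counting split reads between these genes was not tested.

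The makeup of the 4E-BP mRNA pool differed between treated and untreated libraries more than its total. The summed level of the 3 genes was 99.9 and 129 FPKM in untreated and treated 22Rv1, and 68.0 and 68.1 FPKM in PC3. EIF4EBP2 made up 29.7% of that sum in untreated and 10.7% in treated 22Rv1, and 37.2% and 11.0% in PC3. The ratio of EIF4EBP1 to EIF4EBP2 was 2.28 untreated and 7.96 treated in 22Rv1, and 1.69 and 8.10 in PC3. Both treated ratios were above both untreated ones. EIF4EBP2 per EIF4E was 1.41 and 0.606 in 22Rv1 and 1.14 and 0.292 in PC3. All 4E-BPs per EIF4E were 4.74 and 5.65 in 22Rv1 and 3.06 and 2.66 in PC3, so that this ratio was higher in one treated line and lower in the other. As EIF4EBP2 was chosen by its fall, these shares and ratios carry no test either.

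**Figure D2:**
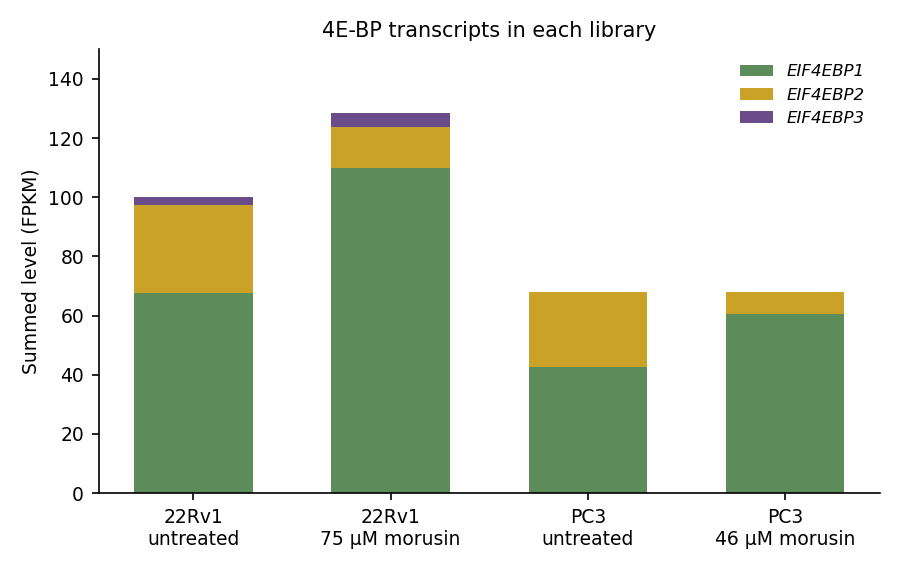
Stacked FPKM of EIF4EBP1, EIF4EBP2 and EIF4EBP3 in each library, 1 library per bar. The EIF4EBP2 part is 29.7% and 37.2% of the bar in untreated 22Rv1 and PC3, and 10.7% and 11.0% after morusin, while the PC3 total is 68.0 and 68.1 FPKM.

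The cap-binding members lay nearer their untreated values than EIF4EBP2 did. EIF4E, the subunit that binds the cap and is oncogenic when overexpressed, was at 21.1 and 22.8 FPKM in untreated and treated 22Rv1, and at 22.2 and 25.6 FPKM in PC3. The lowest and highest of the 4 values were these untreated 22Rv1 and treated PC3 libraries, with log2 changes of 0.11 and 0.20 and a shared change of 0.15 ± 0.19 (adjusted p = 0.71). With each library rescaled to the same FPKM sum the 22Rv1 change was -0.08, so no direction is given for that line. EIF4E2, the related protein 4EHP, which binds the cap without eIF4G and represses translation, was at 28.3 and 38.7 FPKM in 22Rv1 and at 29.2 and 28.5 FPKM in PC3. The treated 22Rv1 library stood above the other 3, which lay within 1 FPKM of each other. Its log2 changes were 0.44 in 22Rv1 and -0.04 in PC3, and the shared change of 0.20 ± 0.20 did not pass (adjusted p = 0.63). The gap of 0.48 between the lines has no test, since the design leaves no residual degrees of freedom for it.

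The scaffolds had values at or below their untreated level in 22Rv1 and, for EIF4G1 and EIF4G3, in PC3. EIF4G1, the main scaffold of eIF4F, was at 224 and 194 FPKM in untreated and treated 22Rv1 and at 169 and 151 FPKM in PC3. EIF4G3, its close relative, was at 27.6 and 20.7 FPKM in 22Rv1 and at 20.1 and 17.3 FPKM in PC3. Each was lower in the treated library of each line, with log2 changes of -0.21 and -0.16 for EIF4G1 and -0.40 and -0.20 for EIF4G3. Neither passed the shared test, at -0.18 ± 0.17 (adjusted p = 0.60) and -0.30 ± 0.20 (adjusted p = 0.44). EIF4G2, known as DAP5, lacks the eIF4E-binding part and serves cap-independent or eIF4E-independent initiation. It was at 280 and 220 FPKM in 22Rv1 and at 474.1 and 474.7 FPKM in PC3. Its log2 changes were -0.34 and 0.00, and the shared change was -0.17 ± 0.18 (adjusted p = 0.65). PC3 lay near its untreated value whether the change was taken as deposited or median-centred (0.06), and at -0.10 with equal sums.

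The helicases were higher in every treated library than in the untreated library of its line. EIF4A1, the main eIF4A of growing cells and the target of rocaglate inhibitors, was at 351 and 399 FPKM in 22Rv1 and at 404 and 467 FPKM in PC3. EIF4A2, its paralogue, lies on chromosome 3 at 186783205 to 186789900 (plus strand) and was at 83.2 and 103 FPKM in 22Rv1 and at 94.7 and 133 FPKM in PC3. Log2 changes were 0.19 and 0.21 for EIF4A1 and 0.31 and 0.48 for EIF4A2. Neither passed the shared test, at 0.20 ± 0.17 (adjusted p = 0.57) and 0.40 ± 0.18 (adjusted p = 0.28). With equal sums EIF4A1 in 22Rv1 was at -0.01, so its direction there depends on scaling, whereas EIF4A2 kept its sign under all 8 alternatives in each line. Its size in 22Rv1 did not hold, at 0.11 with equal sums and 0.07 when mitochondrial, small nuclear and ribosomal RNA genes were left out of the sums. The ratio of EIF4A1 to EIF4A2 was 4.21 and 3.87 in 22Rv1 and 4.27 and 3.52 in PC3.

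A readthrough gene also bears on EIF4A1, which lies on chromosome 17 at 7572706 to 7579005 (plus strand). SENP3-EIF4A1, on the same strand, was at 144 and 149 FPKM in 22Rv1 but at 11.0 and 4.64 FPKM in PC3. EIF4A1 alone was lower in untreated 22Rv1 than in untreated PC3 (351 against 404 FPKM), while the sum with the readthrough row was higher (494 against 415 FPKM). Whether counting placed EIF4A1 reads in that row was not tested. The 29 pseudogenes named after members were at most 2.15 FPKM, and 19 were listed at 0 in all 4 libraries.

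**Figure D3:**
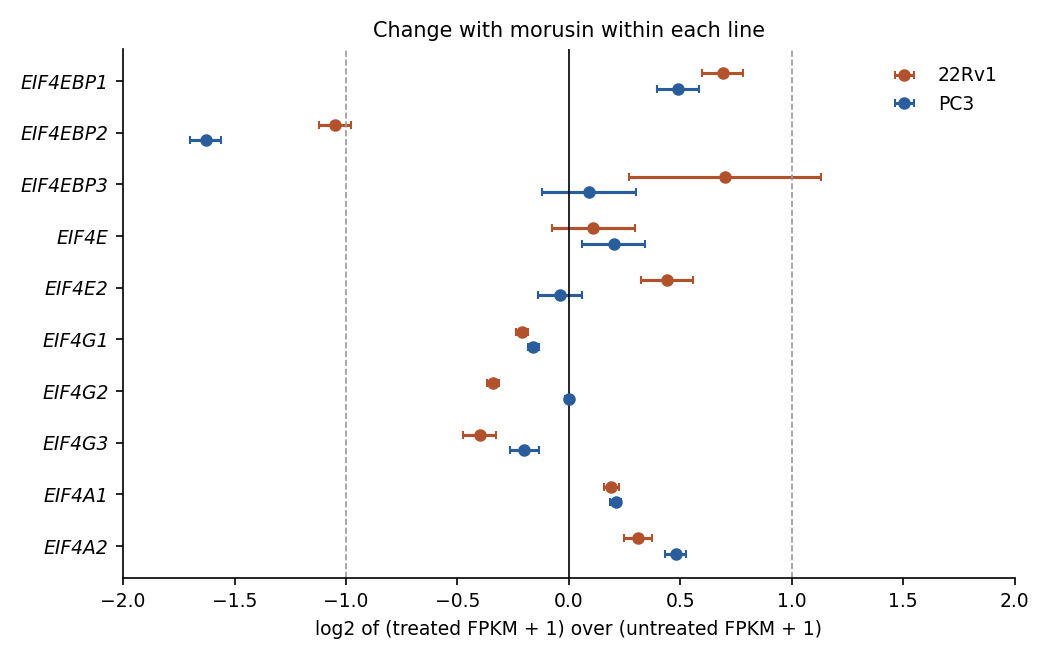
Change with morusin (log2, FPKM + 1; horizontal axis) of each gene in 22Rv1 and PC3, 1 library pair per point; bars span 1.96 counting errors each way, and dashed lines mark 2-fold. EIF4EBP2 alone lies beyond 2-fold, at -1.05 and -1.63, and the other members lie between -0.40 and 0.70.

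Across the members, EIF4EBP1 and EIF4A2 were higher in both treated libraries, and EIF4EBP2, EIF4G1 and EIF4G3 lower in both, under every alternative tried. EIF4E and EIF4A1 were higher in both as deposited but not in 22Rv1 with equal sums. EIF4E2 and EIF4G2 differed in sign between the lines as deposited. EIF4EBP3 was higher in treated 22Rv1 as deposited, but its sum with the readthrough row was lower, at 18.2 against 20 FPKM. No direction is given for EIF4EBP3 in PC3. No member was at least 2-fold higher, where 3.48% of genes in 22Rv1 and 1.24% in PC3 were. The median change of the members was 0.15 in 22Rv1 and 0.00 over the 9 past the filter in PC3, against -0.01 and -0.05 over all genes. Of the 9 members other than EIF4EBP2, 0 passed in limma at an adjusted p of 0.05 and 1 (EIF4EBP1) had an unadjusted p below it. Over all genes the same test called 0.351% higher and 0.236% lower with morusin, and 18.5% had an unadjusted p below 0.05. Equal sums moved the median of all genes to -0.18 in 22Rv1 and -0.14 in PC3, and changes near 0 should be read against those shifts.

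**Figure D4:**
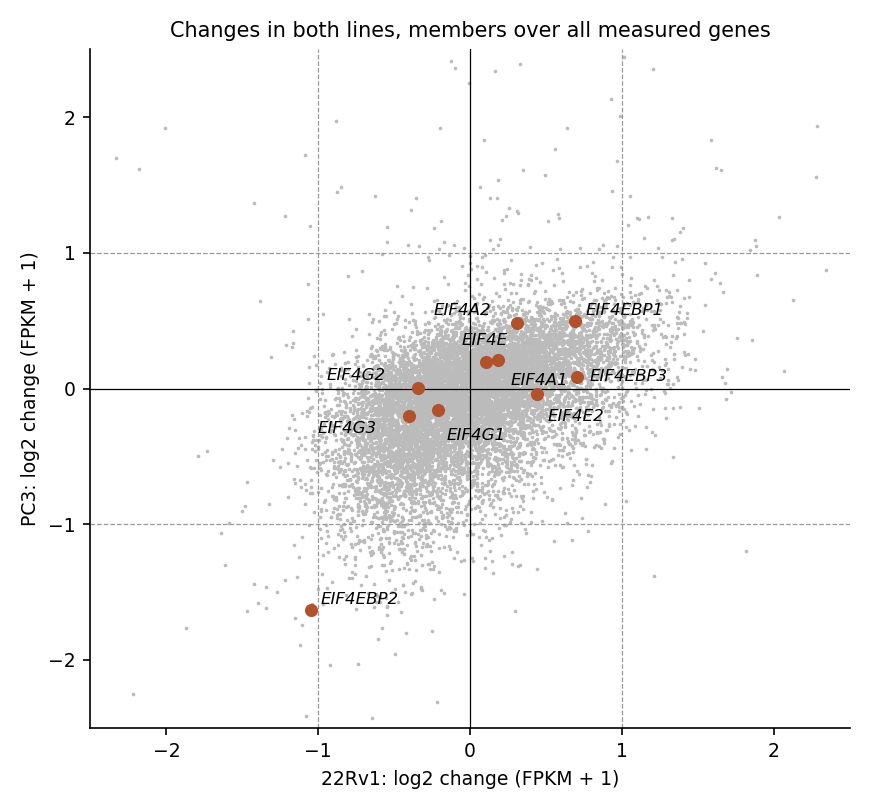
Change in PC3 against change in 22Rv1 (log2, FPKM + 1) for 11222 genes measured in both lines and with a transcript length in GENCODE 29, with the members in colour; 56 genes lie outside the axes, and EIF4EBP3 is drawn although it did not pass the filter in PC3. EIF4EBP2 sits in the lower left corner. It is among the 35 genes at least 2-fold lower in both lines, of 11240 past the filter in both. The other members lie within 2-fold in both lines, with EIF4EBP1 above 90.2% of genes in 22Rv1 and 94.5% in PC3, and EIF4A2 above 94.1% in PC3.

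Transcript length moved with the changes, and EIF4EBP2 and EIF4EBP1 differ widely in it. Across protein-coding genes the change correlated with the length of the longest transcript with a Spearman rho of -0.54 over 11361 genes in 22Rv1 and -0.40 over 11442 in PC3; genes share their libraries, so this is a description. EIF4EBP2 is a short protein on a long mRNA, with 360 coding bases and a 3′ UTR of 6874 in a transcript of 7257 bases, and 11.5% of measured protein-coding genes have a transcript that long. EIF4EBP1 has 354 coding bases in a transcript of 1020, and 3.28% are that short. Genes of 7000 bases or more had a median change of -0.45 in 22Rv1 and -0.30 in PC3, and 2.99% and 7.20% of them were at least 2-fold lower. Genes of 1000 to 2000 bases had medians of 0.34 and 0.15. With a linear trend on log2 length removed, EIF4EBP2 was at -0.78 in 22Rv1, no longer 2-fold, and at -1.49 in PC3, and EIF4EBP1 was at 0.39 and 0.31. EIF4G1 became -0.01 and -0.06 and EIF4E 0.51 and 0.42. The trend took the longest transcript of each gene, which for EIF4E has 11523 bases. The counting errors of EIF4E took a coding transcript of 898 bases, so its values after this removal depend on the transcript taken. The same holds for EIF4A2 (longest 5327 bases, coding transcript 1889) and EIF4G2 (6769 and 4001). It also holds for EIF4E2 (3525 and 1604) and EIF4G3 (6196 and 5325). The part of length in these changes beyond that removal was not tested.

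**Figure D5:**
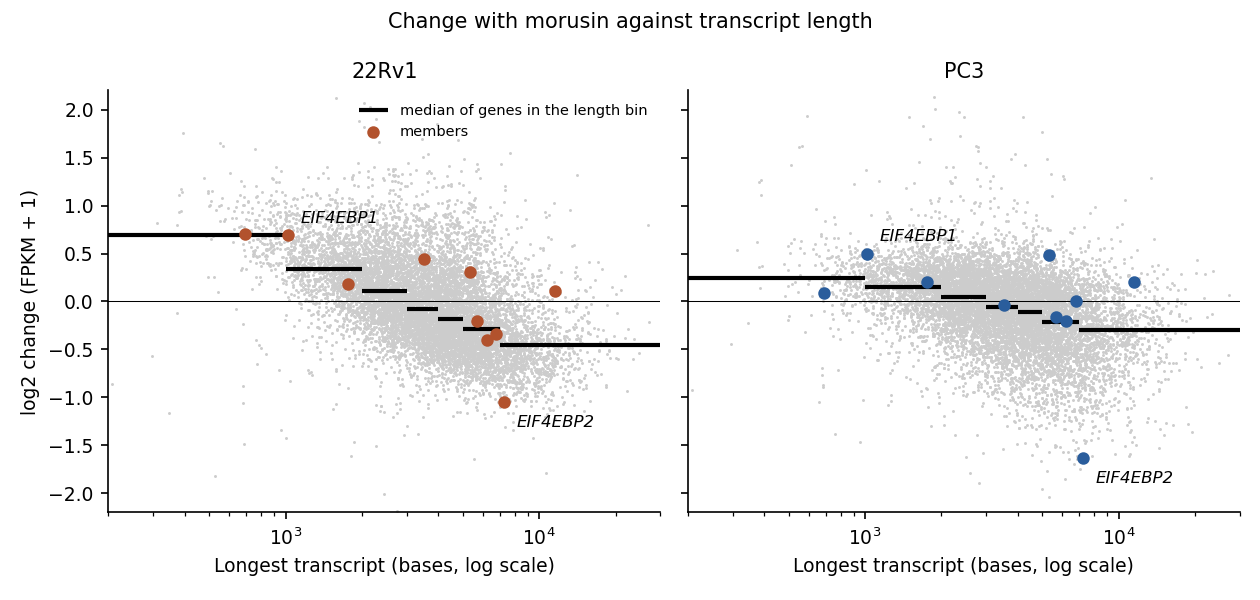
Change with morusin (log2, FPKM + 1) against longest transcript (log axis) in each line; grey points are protein-coding genes measured in both lines (30 of 10219 lie outside the axes), coloured points the members, and black lines the medians of genes measured in that line by length bin. Medians fall from 0.69 and 0.24 below 1000 bases to -0.45 and -0.30 at 7000 or more, and EIF4EBP2 lies below the median of its bin in both lines.

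The difference between the lines was not used to choose any member and was tested in the fit with treatment as a term. The treated and untreated library of a line are not replicates, and each gene has 1 residual degree of freedom. EIF4EBP1 was higher in 22Rv1, by 0.75 ± 0.18 on the log2 scale (SE, adjusted p = 0.0057), at 67.6 and 110 FPKM against 42.7 and 60.6 FPKM in PC3. EIF4EBP3 was at 2.64 and 4.92 FPKM in 22Rv1 and at 0.0378 and 0.103 FPKM in PC3. It entered the test only through the 22Rv1 libraries, where it is high, so no test is given for it. Its fitted difference was set by the pseudocount, at 2.12 with 1, 4.47 with 0.1 and 0.78 with 5. EIF4G2 was higher in PC3, with a difference of -0.93 ± 0.18 (adjusted p = 0.0017), at 280 and 220 FPKM against 474.1 and 474.7 FPKM. Of the other 9 members, 1 was thus called higher in 22Rv1 and 1 in PC3, where 36.1% and 28.3% of all genes were called. EIF4EBP2 (0.51 ± 0.22, adjusted p = 0.067) and EIF4G1 (0.38 ± 0.17, adjusted p = 0.082) did not pass. The residual of a gene in this fit is the gap between its changes in the lines. For EIF4EBP2 those are the values it was chosen by, so its p-values here are not free of that choice. EIF4G3, EIF4E2, EIF4E, EIF4A1 and EIF4A2 had adjusted p-values from 0.15 to 0.61. Without treatment as a term the EIF4EBP1 difference did not pass (adjusted p = 0.099), and without an expression filter that of EIF4G2 did not (adjusted p = 0.055). A further setting removed the linear trend of the 22Rv1 minus PC3 difference on log2 length, which is not the trend of the morusin change. With it EIF4G1 and EIF4G3 passed in limma as well (adjusted p = 0.014 and 0.041). EIF4EBP2 was at an adjusted p of 0.014 there, which is not free of its choice either.

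Other genes of cap-dependent initiation gave no calls in the shared test (limma, adjusted p), and the counts and medians are given as descriptions. An unadjusted p below 0.05 was reached by 18.5% of the 13980 genes tested, against which the counts of each list are to be read. The median change of all genes was -0.01 in 22Rv1 and -0.05 in PC3, against which the signs and medians of each list are to be read. Of 19 measured partners of the cap complex, 13 were below 0 in each line, with medians of -0.24 and -0.23 and 12 below 0 in both; with equal sums, which moved the medians of all genes to -0.18 and -0.14, 18 and 16 were below 0. With the length trend removed the 22Rv1 median was -0.07, with 11 below 0 and 8 above. Of these genes 0 passed, and 3 had an unadjusted p below 0.05. LARP1, which binds the cap of ribosomal protein mRNAs, was at 94.5 and 63.4 FPKM in 22Rv1 and 75.0 and 45.1 FPKM in PC3 (adjusted p = 0.15). CYFIP1, which represses translation with eIF4E, was at 33.7 and 24.3 FPKM in 22Rv1 and 44.0 and 30.2 FPKM in PC3 (adjusted p = 0.22). GIGYF2, which acts with 4EHP, was at 26.1 and 14.6 FPKM in 22Rv1 and 26.8 and 22.7 FPKM in PC3 (adjusted p = 0.25). MKNK2, a kinase of eIF4E, was at 32.7 FPKM in both 22Rv1 libraries and at 37.4 and 17.5 FPKM in PC3 (adjusted p = 0.31). Of these partners, MKNK2 was the 1 gene past 2-fold in PC3, and 0 were in 22Rv1.

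The mTORC1 pathway, which controls the 4E-BPs, showed no common direction. Of its 34 tested genes 0 passed and 4 had an unadjusted p below 0.05, with medians of 0.06 over 33 genes in 22Rv1 (-0.13 with equal sums) and -0.12 over 34 in PC3. PDPK1, the kinase that activates AKT and S6K, was at 13.4 and 7.74 FPKM in 22Rv1 and 7.49 and 2.89 FPKM in PC3 (log2 changes -0.72 and -1.13, adjusted p = 0.12). RPTOR, the subunit that presents 4E-BPs to mTOR, was at 9.53 and 7.17 FPKM in 22Rv1 and 24.8 and 13.3 FPKM in PC3 (adjusted p = 0.20). RPS6, a ribosomal protein phosphorylated below mTORC1, was at 533 and 870 FPKM in 22Rv1 and 247 and 358 FPKM in PC3 (adjusted p = 0.15). LAMTOR4, part of the lysosomal anchor of mTORC1, was at 49.5 and 73.9 FPKM in 22Rv1 and 15.7 and 19.0 FPKM in PC3 (adjusted p = 0.29).

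The eIF3 subunits and the elongation factors had medians above 0. Of 13 eIF3 subunits, which join the small ribosomal subunit to eIF4G, 11 were above 0 in each line (medians 0.23 and 0.30); 0 passed and 4 had an unadjusted p below 0.05. EIF3F was at 31.3 and 51.5 FPKM in 22Rv1 and 37.0 and 56.0 FPKM in PC3 (adjusted p = 0.15). With equal sums the eIF3 median in 22Rv1 was 0.03, with 9 of 13 above 0. Of 16 genes of eIF1, eIF2, eIF2B, eIF5 and eIF6, 11 were above 0 in each line (medians 0.18 and 0.12) and 0 passed, with 2 at an unadjusted p below 0.05; with equal sums 8 of 16 were above 0, and the 22Rv1 median was -0.01. EIF1, which guards start codon choice, was at 90.9 and 140 FPKM in 22Rv1 and 56.9 and 88.6 FPKM in PC3, while EIF5, the GTPase activator of eIF2, was at 44.6 and 30.7 FPKM in 22Rv1 and 82.1 and 46.1 FPKM in PC3 (adjusted p = 0.15 for each). Of 10 elongation factors 0 passed and 2 had an unadjusted p below 0.05, with medians of 0.30 over 9 genes in 22Rv1 and 0.32 in PC3. EEF1D, of the exchange complex for the elongation factor eEF1A, was at 115 and 191 FPKM in 22Rv1 and 240 and 299 FPKM in PC3 (adjusted p = 0.20).

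The genes most like EIF4EBP2 were sought among 6371 protein-coding genes with 5 FPKM or more in all 4 libraries, by the distance over 3 log2 values (the change in each line and the gap between the untreated lines). SBNO1 was nearest, at a distance of 0.11, with 21.1 and 10.3 FPKM in 22Rv1 and 17.2 and 5.05 FPKM in PC3. MT-ND1 (0.34), SOGA1 (0.37), ATP13A3 (0.42), USP22 (0.50) and MLEC (0.51) followed. SBNO1, SOGA1, ATP13A3, USP22 and MLEC have longest transcripts of 5220 to 14371 bases, and MT-ND1 one of 956. The likeness rests on 4 libraries and describes these values.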

How the data were processed

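Expression was taken from the table the authors deposited, with FPKM values for 60617 Ensembl genes in 4 libraries. The submitters' processing notes name Trimmomatic, HISAT2 and StringTie, with GRCh38 as the build. Their versions, the annotation release and whether strand was used were not given in the sources used here. Reads of overlapping genes thus cannot be told apart. Per the labels' protocols, libraries were made with a TruSeq RNA kit and read as paired ends. FPKM are relative to each library's total.

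Members and lists were chosen with earlier results of these data known. Symbols came from a gene name table (60261 IDs matched), and places and lengths from GENCODE 29 on GRCh38. A change is the treated minus the untreated log2(FPKM + 1) of a line. It was computed where either library reached 1 FPKM, and 2-fold was the threshold. The shared response and the line difference were tested on the same scale by limma, in a model holding line (which pairs the libraries, per the labels) and treatment, with intensity-trended prior variance. This took genes reaching 1 FPKM in 2 or more libraries, with Benjamini-Hochberg adjustment at 0.05. The labels do not say that libraries come from separate cultures. Each gene has 1 residual degree of freedom, and the prior variance taken over all genes brings the total to 8.95. The p-values thus rest largely on that shared variance and measure only the spread between these 4 libraries, not a replicate spread. The fit was tested on simulated data with independent noise of standard deviation 0.25. In each direction it recovered 50 of 50 genes at a log2 change of 2 and 36 of 50 at 1, with 8 false calls. The simulation held no length trend or scaling shift, so it does not show how the fit behaves under these.

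Depth came from single-exon genes of 600 to 5000 bases, from the step at which FPKM times length was most frequent (tolerance 1.5%). Only 57 to 81 values of the 1277 to 1612 low ones in a library sat on that step, so counting errors are rough. They use the length of 1 coding transcript per member, although most members have more than 1 transcript. The genes named are all members, up to 4 per list by the largest mean change among those at 5 FPKM or more, and the 6 nearest to EIF4EBP2; some that add nothing are left out. Alternatives covered the pseudocount, scaling, filters, length and blocking. Python 3.11.15, numpy 2.4.6, pandas 2.3.3, scipy 1.17.1, matplotlib 3.10.9, R 4.3.3 and limma 3.58.1 were used.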

Additional observations from a re-analysis of the deposited data

Results flagged for a closer look

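EIF4E2 had a log2 change of 0.44 in 22Rv1 and -0.037 in PC3, and EIF4G2 of -0.34 in 22Rv1 and 0.0018 in PC3. As deposited, each had opposite signs in the lines. In PC3, EIF4E2 was at 0.02 with median centring, and EIF4G2 at -0.10 with equal sums and -0.13 with mitochondrial, small nuclear and ribosomal RNA genes left out of the sums, the sign of 22Rv1 in each case. The PC3 values as deposited lie within 1.96 counting errors of 0, and the difference between the lines was not tested.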

How the results depend on the processing

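EIF4EBP2 kept its sign in both lines under all 8 alternatives, from -1.27 to -0.78 in 22Rv1 and from -1.76 to -1.28 in PC3. The members at least 2-fold lower in 22Rv1 became 0 with a pseudocount of 5 and 0 with the length trend removed. None of the other 9 members passed the shared test under any of its alternatives (7 for EIF4EBP3, 8 for the others); adjusted p ranged from 0.078 to 1. Line pairs the libraries by the labels. Without it (no replicate block) limma called 0 higher and 0 lower, as without an expression filter (0 and 0), where 54 and 2323 genes had an unadjusted p below 0.05.

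Counts over all genes depended on the setting; the cause was not tested. Against 465 higher and 136 lower in 22Rv1, a pseudocount of 0.1 gave 844 and 376, a pseudocount of 5 gave 151 and 33, equal sums 255 and 351, sums without mitochondrial, small nuclear and ribosomal RNA genes 233 and 416, and length trend removal 299 higher. Against 160 higher and 341 lower in PC3, pseudocounts of 0.1 and 5 gave 259 and 680, and 74 and 85; a filter of 5 FPKM gave 105 higher and the reduced sums 516 lower. The share higher was 77.4% in 22Rv1 as deposited, 42.1% with equal sums and 35.9% with the reduced sums and 64.2% with the length trend removed, and in PC3 31.9%, 23.7% and 21.5%. The shared test, at 49 higher and 33 lower, gave 18 and 15 with a pseudocount of 5, 313 and 1278 with equal sums, 156 higher with median centring, 100 lower with a filter of 5 FPKM and 109 lower with the length trend removed. No library could be left out, since each group has 1. At about 1.1 and 2.0 read pairs, no change of EIF4EBP3 in PC3 was detectable.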
